A study of Homo sapiens with 6 samples.

Results

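The 48 genes described here encode proteins that mark, license and fire DNA replication origins, or that work at the replication fork. They were chosen by name, from the known roles of their products in origin recognition and licensing, helicase activation, DNA synthesis, clamp loading and fork protection. The choice was made with earlier results of these data known, so counts of members set beside all genes are descriptions only. All 48 were matched by symbol among the 58302 genes of the count tables, and all 48 passed the filter on low counts, which kept 14018 genes. Expression was measured by RNA sequencing in HL-60 cells, an established suspension line of promyelocytic character from a patient with acute myeloid leukaemia, kept in medium with 20% fetal bovine serum. In 3 libraries the cells carried a short hairpin RNA (shRNA) against OSGEP, and in 3 control libraries they carried a control shRNA in cells whose genotype is given as WT. OSGEP carries the catalytic activity of the KEOPS complex, which places t6A on transfer RNAs, and the series was designed to look for proliferation, cell cycle and apoptosis pathways that respond to its knockdown. The labels used here give neither the number of hairpins or clones, nor the time after their introduction, nor whether replicates were separate cultures. The p-values therefore measure a spread among libraries that may be technical only.

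Replication starts at origins that the origin recognition complex (ORC) marks. During G1, CDC6 and CDT1 help ORC to load the ring of MCM2 to MCM7 onto DNA, the step called licensing, and geminin keeps CDT1 from acting again later in the cycle. In S phase the kinase CDC7 with its activator DBF4, together with cyclin-dependent kinases, turns the loaded ring into the active CMG helicase by joining it to CDC45 and the GINS complex. Polymerases, the sliding clamp PCNA and its loader, single-strand binding proteins and a fork protection complex then follow the helicase. Many of these genes are transcribed in a wave around the entry into S phase, under E2F transcription factors, and proliferating leukaemia cells express them highly.

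Total counts were 8326982 to 10157091 per OSGEP shRNA library and 8414775 to 10025573 per control library. The members together held 0.332% to 0.340% of all counts in the OSGEP shRNA libraries and 0.443% to 0.468% in the control libraries. OSGEP itself stood at 21.2, 23.1 and 20.9 CPM (read counts scaled to library size with TMM factors) in the OSGEP shRNA libraries, against 49.1, 54.4 and 76.9 CPM in the controls (log2 fold change -1.47, SE 0.21, edgeR adjusted p = 0.000228). Of 8 myeloid markers 4 fell (edgeR adjusted p under 0.05), beside 5.56% of all genes tested. They were MPO, ELANE, AZU1 and PRTN3, which encode proteins of primary granules. The summed level of the 8 was 1156 to 1239 CPM in OSGEP shRNA libraries and 2871 to 3020 CPM in control libraries. The surface marker gene CD33 and the myeloid transcription factor gene SPI1 were present in both groups, with CD33 at 66.9 CPM and SPI1 at 170 CPM on average in OSGEP shRNA cells and 68.3 and 188 CPM in control cells. The genes of the myeloid factors CEBPE and CEBPA were not called, at 24.9 ± 13.6 and 44.3 ± 6.15 CPM in OSGEP shRNA cells and 12.9 ± 3.27 and 36.5 ± 4.62 CPM in control cells (SD, n = 3 each), with log2 fold changes of 0.94 and 0.28. Of 5 erythroid markers the summed level was 0.209 to 1.19 CPM in OSGEP shRNA libraries and 0.309 to 1.11 CPM in control libraries, and the T cell markers CD3D and CD3E were each below 1 CPM on average in both groups. Summed levels of the 6 lymphoid markers were 24.8 to 28.8 CPM in OSGEP shRNA libraries and 84.1 to 98.5 CPM in controls. Most of this came from NKG7, which fell (log2 fold change -1.88, edgeR adjusted p = 2.09e-06). MS4A1, the only other lymphoid marker that passed the filter, was not called (-0.04). The 6 epithelial and mesenchymal markers summed to 23.02 to 39.0 CPM in OSGEP shRNA libraries and 18.3 to 27.6 CPM in controls. The part of these shifts in the results below was not tested.

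Of the 48 genes, 19 fell in OSGEP shRNA cells and 0 rose (edgeR quasi-likelihood test, adjusted p under 0.05 over all genes tested). Over all genes tested, 5.56% fell and 5.19% rose, which is 780 and 727 genes. With library size alone as scaling the split over all genes was 612 lower and 859 higher, and 16 members were lower. At an unadjusted p under 0.05 the members numbered 26 lower and 1 higher, beside 11.9% and 11% of all genes tested. DESeq2 called 18 lower and 0 higher beside 5.25% and 5.42% of its genes. With limma-voom 20 were lower and 0 higher, beside 6.18% and 4.9% of all genes. The log2 fold change was negative for 46 of the 48, beside 49.7% of all genes tested. The median over the members was -0.44, beside 0.0055 over all genes tested. In 29 members every OSGEP shRNA library lay below every control library, a pattern seen in 15.6% of all genes tested, and in 0 members did every OSGEP shRNA library lie above, which 13.3% of all genes showed. Summed over the members, the level was 3372, 3196 and 3285 CPM in the OSGEP shRNA libraries, against 4620, 4803 and 4586 CPM in the controls. The groups do not overlap in this sum, and the OSGEP shRNA mean was 0.703 of the control mean. In bulk RNA, fewer cells in S phase and less of these RNAs per cell cannot be told apart.

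**Figure D1:**
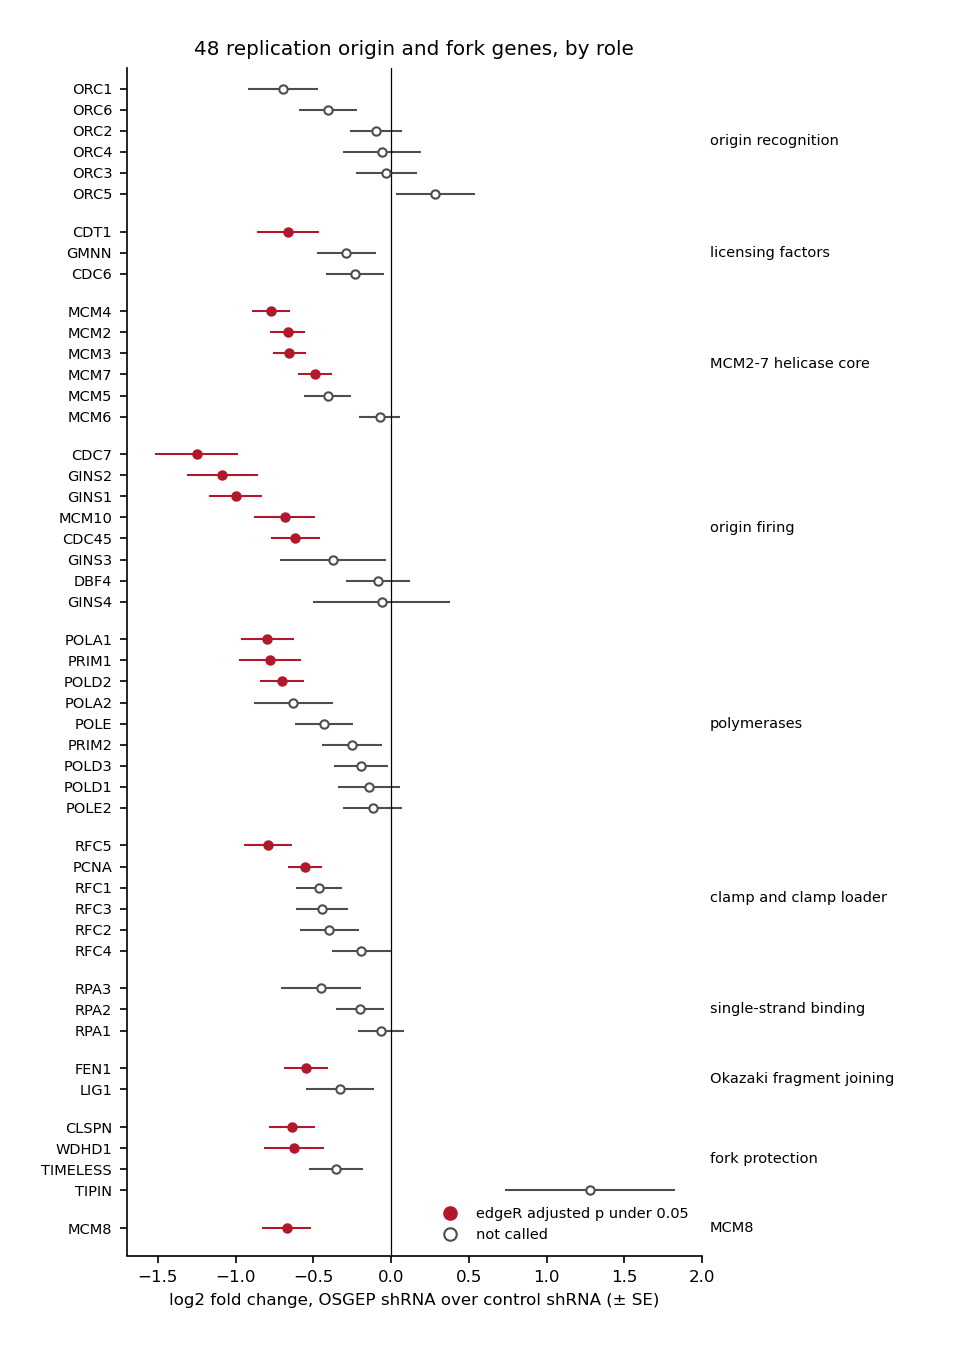
Log2 fold change of each of the 48 genes, OSGEP shRNA over control shRNA, with its standard error, grouped by role. Filled points are the 19 genes with an edgeR adjusted p under 0.05, all left of 0, and open points the other 29.

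The calls did not rest equally on all libraries. Of the 19, the 10 genes MCM2, MCM3, MCM4, CDC7, GINS1, GINS2, POLA1, POLD2, PCNA and RFC5 kept their call in each of the 13 alternative fits. Leaving out control 3 cut the count to 10, and leaving out control 1 or control 2 cut it to 13 each. Between 14 and 20 were called without any 1 of the OSGEP shRNA libraries. Called members had control levels of 38.9 to 504 CPM (median 93.4) and uncalled members 5.10 to 150 CPM (median 50.2). Standard errors ran from 0.11 to 0.26 in called members and from 0.13 (MCM6) to 0.55 (TIPIN) in uncalled ones. A log2 fold change of the size seen in the called genes was therefore not always detectable in the low ones. How far this accounts for the missing calls was not tested.

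Promoter windows of RefSeq (GRCh38.p14, 250 bases before to 50 bases after a gene's start) were found for 42 of the 48 genes. They were searched on both strands for the E2F words TTTCCCGC, TTTCGCGC, TTTGCCGC and TTTGGCGC, where a word on 1 strand may overlap a word on the other. At least 1 word was present for 22 of the 42 genes (52.4%), beside 3.99% of all 27305 genes in the table and 5.40% of its 15843 protein-coding genes. Windows differ in base composition, which was not matched, so these shares are descriptions. Among called members 11 of 18 held a word (61.1%), and among uncalled members 11 of 24 did (45.8%). Below are the windows of 4 genes that fell, an origin kinase, a CMG subunit, a licensing helicase subunit and the sliding clamp, and of MCM6, the uncalled member with the most matches. They were picked after their values were seen, each is written 5′ to 3′ on the strand of its gene, and capitals mark the E2F words. The windows lie at chr1:91500862-91501161 on the plus strand for CDC7, chr16:85688905-85689204 on the minus strand for GINS2, chr3:127598161-127598460 on the plus strand for MCM2, chr20:5126573-5126872 on the minus strand for PCNA and chr2:135876394-135876693 on the minus strand for MCM6.
CDC7: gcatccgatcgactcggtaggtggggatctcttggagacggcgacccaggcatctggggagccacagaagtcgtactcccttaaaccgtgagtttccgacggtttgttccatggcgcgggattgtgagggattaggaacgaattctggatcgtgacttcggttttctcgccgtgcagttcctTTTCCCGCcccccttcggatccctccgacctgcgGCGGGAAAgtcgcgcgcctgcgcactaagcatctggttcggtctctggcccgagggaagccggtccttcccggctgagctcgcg
GINS2: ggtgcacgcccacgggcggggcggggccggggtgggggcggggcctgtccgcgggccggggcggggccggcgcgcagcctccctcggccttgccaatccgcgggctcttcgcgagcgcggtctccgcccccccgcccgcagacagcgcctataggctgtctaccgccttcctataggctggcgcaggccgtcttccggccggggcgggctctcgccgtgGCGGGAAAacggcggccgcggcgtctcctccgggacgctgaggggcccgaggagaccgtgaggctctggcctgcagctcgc
MCM2: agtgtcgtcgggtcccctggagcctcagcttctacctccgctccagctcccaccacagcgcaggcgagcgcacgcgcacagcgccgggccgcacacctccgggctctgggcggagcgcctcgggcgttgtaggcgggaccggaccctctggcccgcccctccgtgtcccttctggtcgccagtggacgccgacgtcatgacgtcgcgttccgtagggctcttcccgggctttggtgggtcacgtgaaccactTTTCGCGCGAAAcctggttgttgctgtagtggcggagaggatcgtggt
PCNA: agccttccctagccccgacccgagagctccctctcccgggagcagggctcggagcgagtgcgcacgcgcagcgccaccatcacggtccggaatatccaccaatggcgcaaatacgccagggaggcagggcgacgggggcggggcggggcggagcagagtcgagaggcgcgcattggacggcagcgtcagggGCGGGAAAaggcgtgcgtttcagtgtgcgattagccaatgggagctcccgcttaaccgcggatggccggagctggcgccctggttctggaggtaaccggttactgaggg
MCM6: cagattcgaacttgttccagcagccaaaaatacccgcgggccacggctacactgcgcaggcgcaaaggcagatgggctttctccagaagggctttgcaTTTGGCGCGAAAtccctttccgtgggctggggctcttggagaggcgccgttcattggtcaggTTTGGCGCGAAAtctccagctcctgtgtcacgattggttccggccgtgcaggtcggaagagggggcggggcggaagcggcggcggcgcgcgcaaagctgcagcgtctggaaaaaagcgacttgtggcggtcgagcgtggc
The CDC7 window holds 2 separate words on opposite strands, which begin 68 and 34 bases before the start. In MCM2 a pair of words overlaps just after the start, and in MCM6 there are 2 such overlapping pairs, 4 words in all. GINS2 and PCNA hold 1 word each. For genes with several windows the one with the most words is shown. A match is a description of letters, not of binding.

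Origin recognition had the median nearest to 0 of the role groups. ORC1 to ORC6 form the complex that marks origins, and 0 of the 6 were called by edgeR, DESeq2 or limma-voom, with 2 at an unadjusted p under 0.05 (median log2 fold change -0.08). ORC1, the subunit whose level varies over the cell cycle, stood at 21.9, 21.9 and 23.8 CPM in OSGEP shRNA libraries and 30.4, 36.8 and 42.3 CPM in control libraries. Its groups did not overlap, but the test did not pass (log2 fold change -0.69, SE 0.22, adjusted p = 0.0592). ORC6, the smallest subunit, had 37.3, 31.3 and 33.3 CPM in OSGEP shRNA cells and 44.1, 44.8 and 46.0 CPM in control cells, also without overlap (-0.41, adjusted p = 0.209). The core subunits ORC2, ORC3, ORC4 and ORC5 overlapped between groups, and their log2 fold changes were -0.10, -0.03, -0.06 and 0.29. The signs of ORC3 and ORC4 turned with library size alone and without some libraries.

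Of the licensing genes, CDT1, which brings the MCM ring to ORC, fell. It had 35.4, 63.9 and 52.0 CPM in OSGEP shRNA libraries, against 71.2, 87.1 and 81.1 CPM in controls (log2 fold change -0.66, SE 0.20, adjusted p = 0.0434). The OSGEP shRNA libraries ranged widely and all lay below the controls. This call was lost with library size alone as scaling (-0.58) and in 5 of the 6 fits that left out a library (-0.74 to -0.46). CDC6, the loading ATPase, had 43.7, 43.5 and 33.2 CPM in OSGEP shRNA cells and 44.8, 51.2 and 45.5 CPM in controls (-0.23, adjusted p = 0.535). Geminin, encoded by GMNN, had 37.0, 49.7 and 36.5 CPM in OSGEP shRNA cells and 47.8, 55.6 and 47.1 CPM in controls (-0.29, adjusted p = 0.420).

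The helicase ring MCM2 to MCM7 was the most abundant role group, and 4 of its 6 genes fell. Its summed level was 1174, 1126 and 1132 CPM in OSGEP shRNA libraries and 1690, 1795 and 1654 CPM in controls. MCM4 had 304, 223 and 236 CPM, against 432, 459 and 411 CPM in controls (log2 fold change -0.77, SE 0.12, adjusted p = 0.000523). MCM2, on which CDC7 acts, had 165, 183 and 172 CPM in OSGEP shRNA cells and 266, 291 and 267 CPM in control cells (-0.67, SE 0.11, adjusted p = 0.000791). MCM3 had 297, 355 and 308 CPM in OSGEP shRNA cells and 521, 527 and 464 CPM in control cells (-0.65, SE 0.11, adjusted p = 0.000673). In all 3 genes the lowest control library was well above the highest OSGEP shRNA library.

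MCM7 fell less, with 183, 177 and 179 CPM in OSGEP shRNA libraries and 239, 256 and 263 CPM in controls (log2 fold change -0.49, SE 0.11, adjusted p = 0.00765). Its call was lost without OSGEP shRNA 3 (-0.48) or control 3 (-0.46). MCM5 had 82.5, 63.5 and 78.5 CPM in OSGEP shRNA cells and 92.3, 99.1 and 107 CPM in control cells, which did not overlap but did not pass (-0.41, adjusted p = 0.105). MCM6 overlapped, with 143, 125 and 159 CPM in OSGEP shRNA cells and 141, 164 and 143 CPM in control cells (-0.07, SE 0.13, adjusted p = 0.822). Its sign turned without OSGEP shRNA 2 (0.02). The proteins form a ring with 1 copy of each subunit, but the RNAs were not equal. Per kilobase of the principal transcript, control levels were 157 CPM for MCM3, 104 for MCM4, 85.4 for MCM7, 75.8 for MCM2, 40.0 for MCM6 and 28.1 for MCM5. MCM6 made up 11.5%, 10.2% and 13.1% of the summed per-kilobase level of the 6 genes in OSGEP shRNA libraries, against 7.81%, 8.57% and 8.10% in control libraries. These shares did not overlap, were chosen after the values were seen and were not tested.

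Origin firing held the 3 largest falls of the 48 genes, CDC7, GINS2 and GINS1, with 5 of 8 called. In GENCODE coordinates (GRCh38) CDC7 lies at chr1:91500893-91525764 on the plus strand, GINS2 at chr16:85676198-85690073 on the minus strand and GINS1 at chr20:25407727-25452628 on the plus strand. CDC7, the catalytic subunit of the kinase that triggers firing, had 15.3, 23.02 and 38.2 CPM in OSGEP shRNA libraries, against 64.3, 54.7 and 62.8 CPM in controls (log2 fold change -1.25, SE 0.26, adjusted p = 0.00519). The OSGEP shRNA libraries differed among themselves more than the controls did, and the estimate ran from -1.65 to -0.99 over the alternatives. DBF4, its activating subunit, overlapped, with 34.2, 32.5 and 45.3 CPM in OSGEP shRNA cells and 44.2, 36.1 and 38.4 CPM in control cells (-0.09, SE 0.21, adjusted p = 0.872). DBF4 is uncertain, since the processed pseudogene DBF4P1 held 654 counts over the 6 libraries beside 2155 for DBF4. With pseudogene reads added its value was -0.04.

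GINS2 and GINS1, subunits of the GINS part of the CMG helicase, followed CDC7 in size. GINS2 had 17.2, 16.2 and 21.7 CPM in OSGEP shRNA libraries and 41.7, 40.5 and 34.6 CPM in controls (log2 fold change -1.09, SE 0.23, adjusted p = 0.00511). GINS1 had 42.3, 41.0 and 57.1 CPM in OSGEP shRNA libraries and 83.6, 102 and 94.5 CPM in controls (-0.999, SE 0.17, adjusted p = 0.00101). For both, the highest OSGEP shRNA library stayed clear of the lowest control. GINS3 and GINS4, the other subunits, overlapped and were low, at 11.5 ± 3.05 and 7.49 ± 1.96 CPM in OSGEP shRNA cells and 14.99 ± 3.81 and 7.80 ± 2.52 CPM in control cells (SD, n = 3 each), with log2 fold changes of -0.37 (SE 0.34) and -0.06 (SE 0.44). CDC45, which completes the CMG helicase, had 51.7, 47.3 and 60.4 CPM in OSGEP shRNA cells and 83.1, 80.9 and 80.2 CPM in control cells (-0.62, SE 0.16, adjusted p = 0.0178). MCM10, needed to activate the assembled helicase, had 33.2, 26.4 and 38.4 CPM in OSGEP shRNA cells and 49.1, 53.4 and 54.8 CPM in control cells (-0.68, SE 0.20, adjusted p = 0.0351). CDC45 and MCM10 each lost their call without OSGEP shRNA 2 (-0.53 and -0.54) and without any 1 of the controls (-0.63 to -0.61 and -0.73 to -0.65). The MCM10 call was also lost with library size alone (-0.62) and with the replicate block (-0.70, adjusted p = 0.0632).

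**Figure D2:**
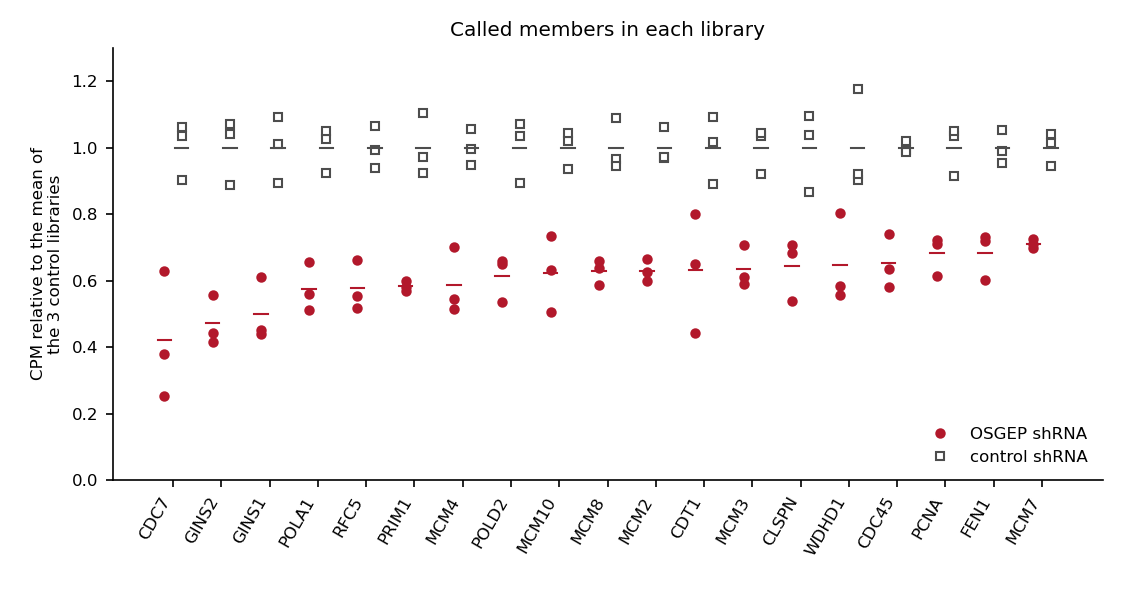
CPM of each called member in each library, divided by the mean of the 3 control libraries, with genes ordered by log2 fold change. Points are libraries and short lines group means. For all 19 genes the OSGEP shRNA points lie below the control points, and the spread is widest for CDC7 and CDT1.

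Among the DNA polymerase genes, 3 of 9 fell. POLA1, the catalytic subunit of polymerase alpha, had 44.9, 38.3 and 34.9 CPM in OSGEP shRNA libraries, against 63.2, 70.1 and 71.6 CPM in controls (log2 fold change -0.79, SE 0.17, adjusted p = 0.00624). PRIM1, the primase subunit that makes the RNA primer, had 25.3, 25.98 and 24.7 CPM in OSGEP shRNA cells and 40.1, 47.97 and 42.2 CPM in control cells (-0.78, SE 0.20, adjusted p = 0.0192). The tight OSGEP shRNA values of PRIM1 lay below all controls, although its call was lost without OSGEP shRNA 3 (-0.75), control 2 (-0.71) or control 3 (-0.80). POLD2, an accessory subunit of the lagging-strand polymerase delta, had 91.6, 90.5 and 74.6 CPM in OSGEP shRNA cells and 149, 124 and 144 CPM in control cells (-0.70, SE 0.14, adjusted p = 0.00367). Its pseudogene POLD2P1 held 608 counts beside 6319 for POLD2, and adding them gave -0.75.

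The other members of the polymerase group did not pass. POLA2, the second subunit of polymerase alpha, had 19.8, 19.1 and 13.5 CPM in OSGEP shRNA cells and 26.9, 27.2 and 27.2 CPM in control cells, without overlap (-0.63, SE 0.25, adjusted p = 0.139). POLE, the catalytic subunit of the leading-strand polymerase epsilon, had 39.8, 40.2 and 55.2 CPM in OSGEP shRNA cells and 68.4, 58.7 and 54.6 CPM in control cells, which overlapped through OSGEP shRNA 3 (-0.43, adjusted p = 0.176). PRIM2, POLD1, POLD3 and POLE2 overlapped too, at log2 fold changes of -0.25, -0.14, -0.19 and -0.12. Whether subunits of 1 polymerase differed from each other was not tested.

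PCNA, the sliding clamp, had the highest per-kilobase level of the 48 genes, at 186 CPM per kilobase in OSGEP shRNA cells and 273 in control cells. It had 263, 228 and 267 CPM in OSGEP shRNA libraries, against 384, 389 and 339 CPM in controls (log2 fold change -0.55, SE 0.11, adjusted p = 0.0035). Of the 5 subunits of its loader, replication factor C, only RFC5 was called, with 49.98, 63.9 and 53.6 CPM in OSGEP shRNA cells and 90.9, 103 and 96.1 CPM in control cells (-0.79, SE 0.15, adjusted p = 0.00281). RFC1, the large subunit, stood at -0.47 (adjusted p = 0.0566) and passed with limma-voom (-0.46) and without OSGEP shRNA 1 (-0.51). Among the OSGEP shRNA libraries, RFC3 and RFC4 were both highest in library 1. RFC3 had 129, 80.4 and 86.2 CPM in OSGEP shRNA cells and 131, 136 and 134 CPM in control cells (-0.44, adjusted p = 0.110), and without OSGEP shRNA 1 it passed at -0.69. RFC4 had 139, 86.8 and 81.2 CPM in OSGEP shRNA cells and 99.2, 136 and 115 CPM in control cells (-0.19, adjusted p = 0.636), and its value was -0.48 without that library, where it did not pass. RFC2 had a log2 fold change of -0.40 (adjusted p = 0.221).

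Single-strand binding genes, which encode the RPA trimer that coats unwound DNA, gave 0 calls among 3 by edgeR, DESeq2 or limma-voom, and 0 at an unadjusted p under 0.05. RPA1, the large subunit, had 79.2, 80.0 and 68.9 CPM in OSGEP shRNA cells and 84.5, 79.4 and 75.0 CPM in control cells (log2 fold change -0.07, adjusted p = 0.861). RPA2 and RPA3 stood at -0.20 and -0.45, each with every OSGEP shRNA library below every control (adjusted p = 0.504 and 0.327). RPA3 is uncertain, since RPA3P2 held 506 counts beside 1310 for RPA3.

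For Okazaki fragment joining, the flap nuclease gene FEN1 fell and the ligase gene LIG1 was not called. FEN1 had 85.9, 72.02 and 87.3 CPM in OSGEP shRNA cells and 118, 114 and 126 CPM in control cells (log2 fold change -0.55, SE 0.14, adjusted p = 0.0179). The groups were separate, but the call was lost in 5 of the 6 fits without a library (-0.58 to -0.45). FEN1 shares 6.70% of its exonic bases with TMEM258 on the other strand, and the strand setting of the counting is not given. FEN1 is not alone in this, since MCM7 shares 8.9% with AP4M1 on the other strand. MCM2 and PRIM1 share 22.7% and 14.9% with genes absent from the count tables, and further members overlap other genes too. LIG1 had 33.4, 54.6 and 33.6 CPM in OSGEP shRNA cells and 52.6, 43.2 and 57.0 CPM in control cells (-0.33, adjusted p = 0.426).

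Fork protection genes link the helicase to the polymerases and to the checkpoint. CLSPN, which encodes the checkpoint mediator claspin, had 85.5, 108 and 112 CPM in OSGEP shRNA libraries, against 173, 137 and 165 CPM in controls (log2 fold change -0.64, SE 0.15, adjusted p = 0.00901). Its call was lost without control 1 (-0.57) or control 3 (-0.61). WDHD1, which couples polymerase alpha to the helicase, had 53.4, 37.0 and 38.8 CPM in OSGEP shRNA cells and 59.97, 78.2 and 61.2 CPM in control cells (-0.63, SE 0.19, adjusted p = 0.0481). This call sat at the threshold and was lost in 9 of the 13 alternatives, among them DESeq2 (-0.61) and RLE scaling (-0.61), and with the replicate block (-0.63, adjusted p = 0.0910). TIMELESS had 74.3, 54.8 and 50.6 CPM in OSGEP shRNA cells and 72.03, 73.6 and 83.9 CPM in control cells, which overlapped through OSGEP shRNA 1 (-0.35, adjusted p = 0.245).

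TIPIN, the partner of TIMELESS, had the only large positive value of the list and did not pass. It had 10.4, 7.77 and 19.2 CPM in OSGEP shRNA libraries, against 2.68, 10.02 and 2.58 CPM in controls (log2 fold change 1.28, SE 0.55, unadjusted p = 0.0328, adjusted p = 0.167). Control 2 overlapped the OSGEP shRNA libraries, and without it the gene was called at 2.23. TIPIN is uncertain as well, with as few as 21 counts in a library and a pseudogene, TIPINP1, that held 279 counts beside 491, and its value with those reads added was 0.83. MCM8, a helicase of homologous recombination rather than of licensing, had 50.3, 46.4 and 52.1 CPM in OSGEP shRNA cells and 76.3, 74.6 and 86.0 CPM in control cells (-0.67, SE 0.16, adjusted p = 0.00993). Its call was lost without control 3 (-0.61).

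**Figure D3:**
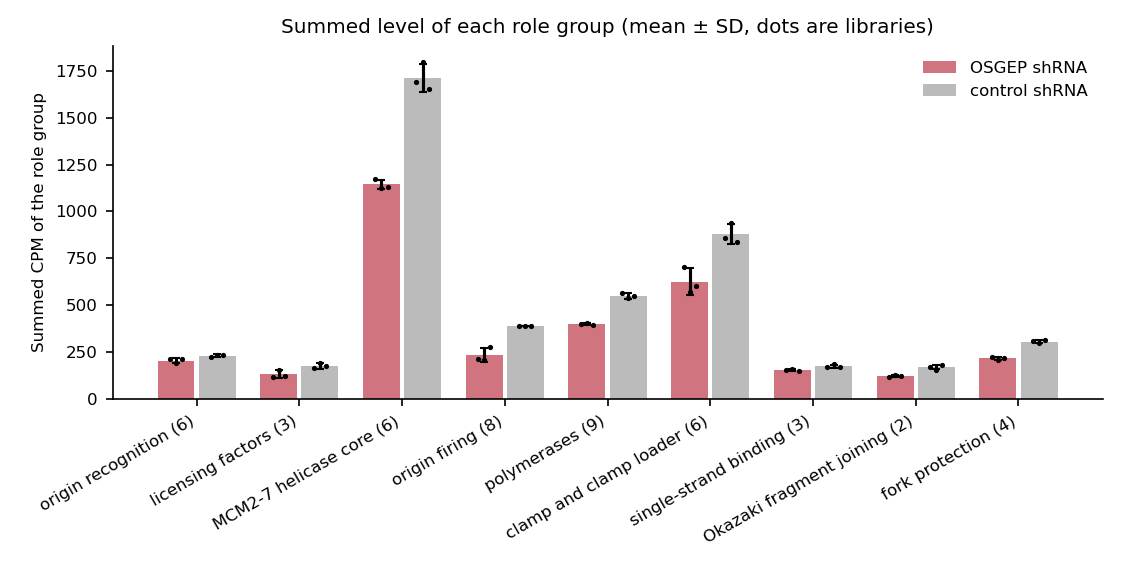
Summed CPM of the genes in each role group, with the number of genes in brackets. Bars are means, error bars the SD over 3 libraries and dots the libraries. The helicase core stands at 1144 CPM in OSGEP shRNA cells and 1713 CPM in control cells, and origin recognition at 205 CPM and 231 CPM.

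Ratios of partner genes within a library, which do not depend on scaling between libraries, show how members moved relative to each other. The ratio of DBF4 to CDC7 per kilobase was 1.89, 1.20 and 1.01 in OSGEP shRNA libraries, against 0.583, 0.560 and 0.519 in controls. Geminin to CDT1, inhibitor to target, was 2.69, 2.00 and 1.81 in OSGEP shRNA libraries and 1.72, 1.64 and 1.49 in controls. GINS2 to MCM7, a pair within the CMG helicase, was 0.104, 0.101 and 0.134 in OSGEP shRNA libraries and 0.193, 0.175 and 0.146 in controls. Of 7 computed ratios, the groups did not overlap in these 3 or in TIPIN to TIMELESS. The TIPIN to TIMELESS ratio was 0.412 to 1.11 in OSGEP shRNA libraries and 0.0904 to 0.400 in controls. The levels of DBF4 and TIPIN are uncertain because of their pseudogenes, and the ratios that use them share this limit. CDT1 lost its call in several alternatives. How often ratios of other gene pairs separate was not counted. PRIM1 to POLA1, a pair that fell in both genes, overlapped, at 2.22 to 2.79 in OSGEP shRNA cells and 2.32 to 2.70 in control cells. POLE2 to POLE overlapped as well, at 3.56 to 5.09 in OSGEP shRNA cells and 3.09 to 3.79 in control cells. So did POLD3 to POLD1, at 0.784 to 1.29 in OSGEP shRNA cells and 1.05 to 1.11 in control cells. The pairs were chosen with the results known, so the ratios are a description without a test.

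**Figure D4:**
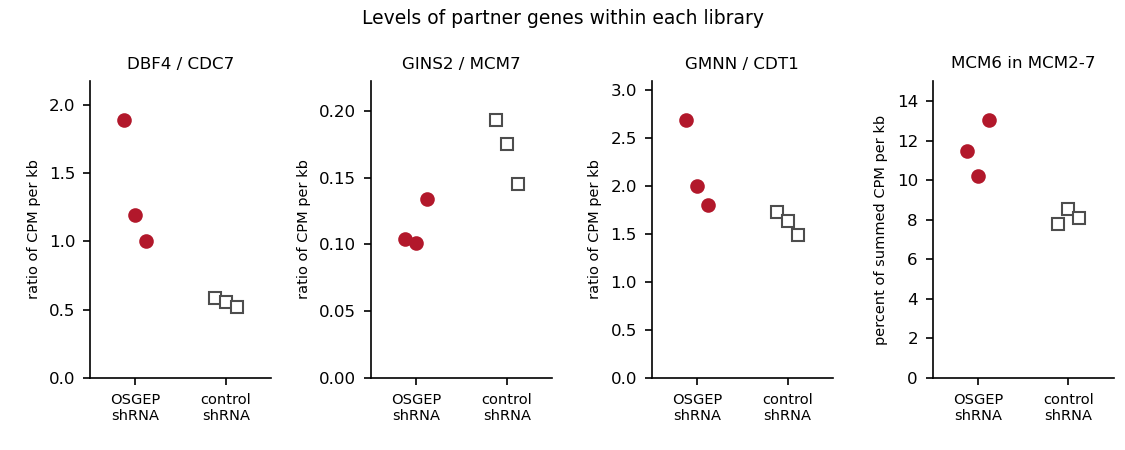
Ratios of CPM per kilobase for DBF4 over CDC7, GINS2 over MCM7 and GMNN over CDT1, and the percentage that MCM6 makes up of the summed MCM2 to MCM7 level, in each library. OSGEP shRNA libraries are filled circles and control libraries open squares, and the groups are separate in all 4 panels. TIPIN over TIMELESS and the ratios that overlapped are not drawn. The level of DBF4 is uncertain because of its pseudogene DBF4P1.

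Other genes of replication and S phase were read from 5 lists of 82 genes, 81 of which were tested, with 17 lower and 1 higher, beside 5.56% and 5.19% of all genes. These counts fell to between 5 and 9 lower without OSGEP shRNA 3, control 2 or control 3. Enzymes of deoxynucleotide supply gave 5 lower and 0 higher of 11 (median -0.36). Every OSGEP shRNA library lay below every control in 6 of the 11, beside 15.6% of all genes tested. In 1, RRM2B, every one lay above (0.56, edgeR adjusted p = 0.1175), beside 13.3% of all genes tested. TK1, the salvage thymidine kinase, had 66.3, 54.7 and 77.8 CPM in OSGEP shRNA cells and 118, 132 and 121 CPM in control cells (log2 fold change -0.90, SE 0.15, adjusted p = 0.000978). DUT, which removes dUTP, fell by 0.69, DCK by 0.60 and TYMS by 0.58. RRM2, the small subunit of ribonucleotide reductase, was the most abundant gene of that list and was not called, at 511, 406 and 462 CPM in OSGEP shRNA cells and 466, 520 and 532 CPM in control cells (-0.14, adjusted p = 0.519). CMPK1, a nucleotide kinase, was not called either (-0.30, adjusted p = 0.108).

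Of the E2F and RB regulators, 3 of 16 fell and 0 rose (median -0.28), beside 5.56% and 5.19% of all genes tested. In 6 of the 16 every OSGEP shRNA library lay below every control, and in 1 above, beside 15.6% and 13.3% of all genes. E2F7, a repressor E2F that is itself expressed in S phase, had 18.8, 28.4 and 19.3 CPM in OSGEP shRNA libraries, against 45.3, 45.6 and 44.4 CPM in controls (log2 fold change -1.02, SE 0.22, adjusted p = 0.00631). RBL1, which encodes p107, fell by 0.79 and TFDP1, the dimer partner of E2F proteins, by 0.36. The activator E2F1 had 48.5, 22.9 and 25.7 CPM in OSGEP shRNA cells and 33.8, 58.5 and 50.1 CPM in control cells and was not called (-0.55, adjusted p = 0.259). The repressor E2F4 had 0.30 and the cell cycle transcription factor MYBL2 -0.22, and neither was called (adjusted p = 0.168 and 0.422).

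Among 13 genes of replication-coupled chromatin assembly, 3 fell and 0 rose (median -0.28), beside 5.56% and 5.19% of all genes tested. They were MMS22L, a partner of newly made histones at the fork, at -0.74 (SE 0.16), the maintenance methyltransferase gene DNMT1 at -0.52 (SE 0.12) and the FACT subunit gene SUPT16H at -0.44 (SE 0.12). In 6 of the 13 every OSGEP shRNA library lay below every control, and in 0 above, beside 15.6% and 13.3% of all genes. SSRP1, the other FACT subunit and the most abundant of the list, had -0.28 (adjusted p = 0.172), and the histone chaperone gene NASP had -0.13 (adjusted p = 0.596). Further replisome and origin factors gave 2 lower and 0 higher of 22 (median -0.25), beside 5.56% and 5.19% of all genes tested. The 2 were RNASEH2B, a subunit of the enzyme that removes ribonucleotides from DNA, at -0.71 (SE 0.18) and ATAD5, which unloads PCNA, at -0.65 (SE 0.18). Every OSGEP shRNA library lay below every control in 5 of the 22, beside 15.6% of all genes. In 1, POLE4, every one lay above (0.47, edgeR adjusted p = 0.117), beside 13.3% of all genes. The abundant POLE3, a subunit of polymerase epsilon, and TOPBP1, which helps to fire origins, were not called, at -0.34 and -0.30 (adjusted p = 0.073 and 0.270).

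Of 19 tested genes of S phase control, 4 fell and 1 rose (median -0.32), beside 5.56% and 5.19% of all genes tested. In 9 of the 19 every OSGEP shRNA library lay below every control, and in 1 above, beside 15.6% and 13.3% of all genes. CDK2, the S phase kinase, fell by 0.85 (SE 0.25), FBXO5, an inhibitor of the anaphase-promoting complex, by 0.70 (SE 0.15), SKP2 by 0.69 (SE 0.18) and DTL, which targets CDT1 for destruction, by 0.46 (SE 0.14). DDB1, the adaptor of the CUL4 ubiquitin ligase that works with DTL, rose, with 203, 172 and 214 CPM in OSGEP shRNA libraries and 130, 138 and 123 CPM in controls (log2 fold change 0.59, SE 0.13, adjusted p = 0.00576), a call lost without control 3 (0.55). CDK2 and DTL were called in only 6 and 4 of the 13 alternatives, and TFDP1 and SUPT16H in 6 and 7. RIF1, which sets the timing of replication, and WEE1, which restrains cyclin-dependent kinases, had -0.37 and -0.30 and were not called (adjusted p = 0.0725 and 0.271). CCNE1, a cyclin of S phase entry, had 0.06 and was not called (adjusted p = 0.945).

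Replication-dependent histone genes, whose transcripts accumulate in S phase and mostly lack a poly(A) tail, varied far more between libraries of a group. Their summed level over 36 matched genes was 463, 2141 and 1319 CPM in OSGEP shRNA libraries, against 1526, 877 and 841 CPM in controls. The control sums all lay inside the range of the OSGEP shRNA sums. Of 24 tested, 0 were called by edgeR. At an unadjusted edgeR p under 0.05, 1 was lower and 1 higher, beside 11.9% and 11% of all genes tested. The log2 fold change was positive for 21 and negative for 3, beside 49.7% of all genes tested with a negative value. The median was 0.36. Such transcripts depend on how polyadenylated RNA was selected, and its part in the histone values was not tested.

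**Figure D5:**
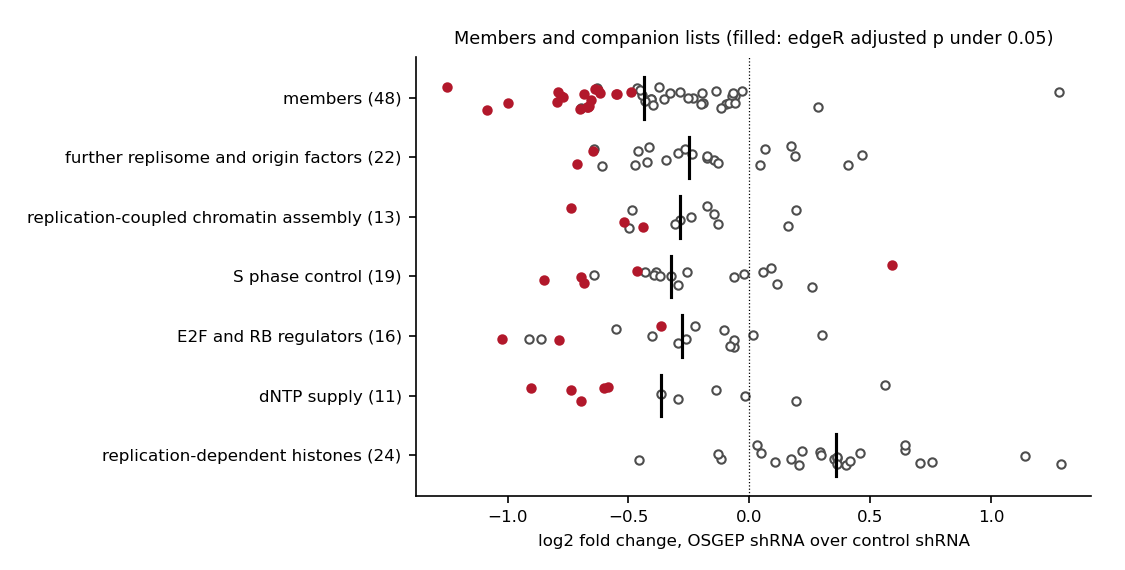
Log2 fold change, OSGEP shRNA over control shRNA, of the tested genes of each list, with filled points for an edgeR adjusted p under 0.05 and a bar at the median. The members have a median of -0.44, the 5 companion lists medians between -0.36 and -0.25, and the histone genes 0.36 with no filled point.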

How the data were processed

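The labels' protocols describe stranded mRNA libraries from total RNA, read as 150 bp paired ends. The deposited values were raw read counts per Ensembl gene, and per the submitters' processing notes HISAT2 2.1.0 and featureCounts 1.6.3 were used, with builds GRCh38 and GRCm38 listed without a role. The annotation, strand setting and handling of multiply aligned reads are given in no source used here. Symbols came from a table of current names and GENCODE release 29 (GRCh38).

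Groups and replicate numbers came from the sample titles. A chi-square comparison of counts between replicates gave 10.53 to 25.56 per degree of freedom, so none was taken as a duplicate. Differential expression was tested, two-sided, in edgeR 4.0.16 (R 4.3.3) by its quasi-likelihood test. The model held group alone, libraries were scaled by TMM, and filterByExpr set a minimum count of 10 and a minimum total of 15. Adjusted p-values are Benjamini-Hochberg over all 14018 genes tested. Standard errors are the absolute log2 fold change over the root of F. Per-kilobase levels use the principal coding transcript. Steps were tested on simulated counts.

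The members, the lists and the promoter motifs were chosen with earlier results of these data known. The naming rule takes OSGEP, all members, and of each companion list the called genes and up to 2 abundant uncalled ones. E2F1, CCNE1, POLE4, RRM2B and the printed promoters were chosen after their values were seen. Alternatives were RLE factors, scaling by library size alone, keeping any gene with a read, a replicate block, leaving out each library, DESeq2 1.42.0 and limma-voom (limma 3.58.1), and, added after seeing the data, pseudogene reads added to members. Single values of a few listed genes are not reported here.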

Additional observations from a re-analysis of the deposited data

How the results depend on the processing

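The number of members called lower, 19, was 18 with RLE factors, 16 with library size alone, 19 with no filter, 18 with DESeq2, 20 with limma-voom and 19 with pseudogene reads added. Leaving out single libraries gave 10 to 20 lower and 0 to 1 higher members, 5 to 22 lower and 0 to 1 higher companion genes, and 423 to 898 lower and 445 to 726 higher among all genes. With the replicate number as a block, 17 members were lower, and 553 genes were lower and 519 higher over all genes. The block ended the calls of MCM10 and WDHD1 among members and left 12 companion genes lower, ending among others the calls of SUPT16H, DTL, CDK2 and TFDP1. Same-numbered libraries did not deviate together (correlations -0.116, -0.0618 and -0.0368), so the numbers were not taken as pairs. The median over members stayed between -0.49 and -0.37 in all alternatives.

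No called member changed sign. Signs turned in 13 fits of 7 uncalled members, all with adjusted p of at least 0.835. With library size alone ORC3 stood at 0.0389, ORC4 at 0.0078, GINS4 at 0.0037 and RPA1 at 0.0036. Over the fits without 1 library the values ran from -0.127 to 0.141 for ORC3, -0.267 to 0.116 for ORC4, -0.144 to 0.0244 for MCM6, -0.234 to 0.014 for DBF4, -0.269 to 0.210 for GINS4, -0.269 to 0.0014 for POLD1 and -0.111 to 0.0129 for RPA1. The cause was not tested. Fits that leave out a library use fewer samples. Counts per member and library ran from 21 to 5148, and the lowest members carry the widest errors.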

Other observations

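Promoter letters of other cell cycle elements were counted in the same windows. The word CCAAT, on either strand, was present for 25 of 42 members (59.5%), beside 39.7% of all genes in the table, and for 13 of 18 called members and 12 of 24 uncalled members. The word TTTGAA, the core of the element found at many mitotic genes, was present for 1 of 42 members (2.38%), DBF4, beside 18.2% of all genes. These shares are descriptions, since windows differ in base composition, which was not matched.

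No single library was lowest for all members. Among the OSGEP shRNA libraries, library 2 was the lowest for 24 of 48 members and library 3 the highest for 19. Among the controls, library 1 was the lowest for 22 and library 2 the highest for 22.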
